A study of Mus musculus with 4 samples.

Results

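The genes of classical and alternative end joining were followed in mouse embryonic stem cells that lack telomerase RNA. The 10 genes were *Xrcc4*, *Xrcc5*, *Xrcc6*, *Lig3*, *Lig4*, *Prkdc*, *Nhej1*, *Trp53bp1*, *Rif1* and *Polq*, found by an exact match of their symbols among the 53379 genes with RNA values, and each symbol matched 1 gene. All 10 were among the 19148 genes with enough counts for a test. The cells were *Terc*-/- mESCs of the line DKO741, recovered as 1 of the knock-out lines from E14 mESCs after both alleles of *Terc*, the gene of the telomerase RNA, had been targeted in turn. A loxP-flanked neomycin cassette had been removed with Cre between the targeting steps, and both groups carry the same deletion. The groups were PD100, pre-ALT cells at 100 population doublings, and PD800, post-ALT cells at 800 population doublings, where ALT is the alternative lengthening of telomeres. These times follow the paper and the sample titles, while the treatment field of the sample records counts 100 and 800 as passages. Both came from 1 line followed in culture, so time in culture and the ALT state cannot be told apart. The lines were kept and stocked on feeder layers of mouse embryonic fibroblasts (MEF), and the study states that its RNA was extracted from feeder-free cultures. The comparison asks how the RNA of repair genes differs between cells before and after ALT took over the upkeep of telomeres.

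End joining mends a chromosome break by ligating its ends without a homologous template. In the classical form, the Ku heterodimer binds the ends and recruits a protein kinase, and a ligase complex seals them; in the alternative form, the ends are first resected and then annealed through short stretches of microhomology. Which form acts depends in part on proteins that shield ends from resection, and the same factors can fuse chromosome ends whose telomeres no longer protect them.

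Bulk RNA was sequenced from 2 libraries of each group, which the study describes as biological duplicates. An expected count is RSEM's estimate of the number of read pairs from a gene, and these summed to 38492149 and 32454121 in PD100 replicates 1 and 2 and to 37460820 and 33362106 in PD800 replicates 1 and 2. CPM is the expected count scaled to a common library total with TMM factors, and TPM is a level scaled for transcript length to the same total in each library. A floor of 3 counts corresponds to 0.0743 to 0.0934 CPM, a limit for counting error alone. The gene targeted in these cells, *Terc* (chromosome 3, 96414437 to 96414859), had 1 count in PD100 replicate 1 and 0 in the other 3 libraries, too few for a test. Coordinates are those of GRCm38. Genes were compared by the quasi-likelihood test of edgeR, with p-values adjusted over all 19148 tested genes by the method of Benjamini and Hochberg, and an adjusted p below 0.01 made a call; SE is the standard error of a log2 fold change. The p-values rest on the spread between the 2 libraries of each group, taken over both groups and moderated with information from all tested genes. An exact permutation test of 2 libraries against 2 cannot give a two-sided p below 0.333.

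Of the 10 end joining genes, 4 fell from PD100 to PD800. These were *Lig4*, *Trp53bp1*, *Xrcc6* and *Lig3*, against 15.4% of all tested genes called lower. Without PD800 replicate 1 the call remained for 1 of them, *Lig4* (7.72% of all genes called lower), without PD800 replicate 2 for 2, *Lig4* and *Trp53bp1* (7.91% of all genes), and with limma on log2(TPM + 1) without a filter for 0 (0.00% of all genes). None of the 10 was called higher in edgeR's test, where 13.1% of all tested genes were called higher and 3 of the 10 were higher at an unadjusted p under 0.05 (26.4% of all genes). Among the other fits with all libraries, some called members higher: *Rif1* by DESeq2's Wald test (13.1% of all genes) and by edgeR without a filter (12.3% of all genes), and *Prkdc*, *Rif1* and *Polq* by edgeR with the replicate number as a block (20.1% of all genes). By edgeR's estimates, *Lig4* was the 1 gene with a fall of more than 2-fold (8.80% of all genes), and 0 rose more than 2-fold (6.28% of all genes). On log2(TPM + 1), *Trp53bp1* also fell more than 2-fold, by 1.17 (adjusted p = 0.00567 in limma's test), as 920 of all genes did by that test. At an adjusted p under 0.05, the same 4 genes were lower (23.6% of all genes) and *Rif1*, *Polq* and *Prkdc* were higher (22.1% of all genes). The median log2 fold change by edgeR, PD800 over PD100, was 0.04 for the 10 genes and 0.01 for all tested genes. On log2(TPM + 1), the median difference was -0.19 for the 10 genes and -0.12 for all tested genes. In bulk RNA, fewer cells of a type and less RNA per cell cannot be told apart.

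The scale mattered for the genes that were higher. By CPM, both PD800 libraries lay below both PD100 libraries for 5 of the 10 genes (36.3% of all genes) and above them for the other 5 (37.4% of all genes). On TPM, they lay below for 5 (49.0% of all genes) and above for 2 (21.3% of all genes). Over all tested genes, the median difference of log2(TPM + 1) was -0.12 and that of log2(TPM + 0.1) was -0.21, so that the TPM of the median gene was lower in PD800. Among all genes, 2513 were called higher and 2943 lower by edgeR, and 712 higher and 2327 lower by limma on log2(TPM + 1). The latter test called the same 4 end joining genes lower (12.2% of all genes).

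**Figure D1:**
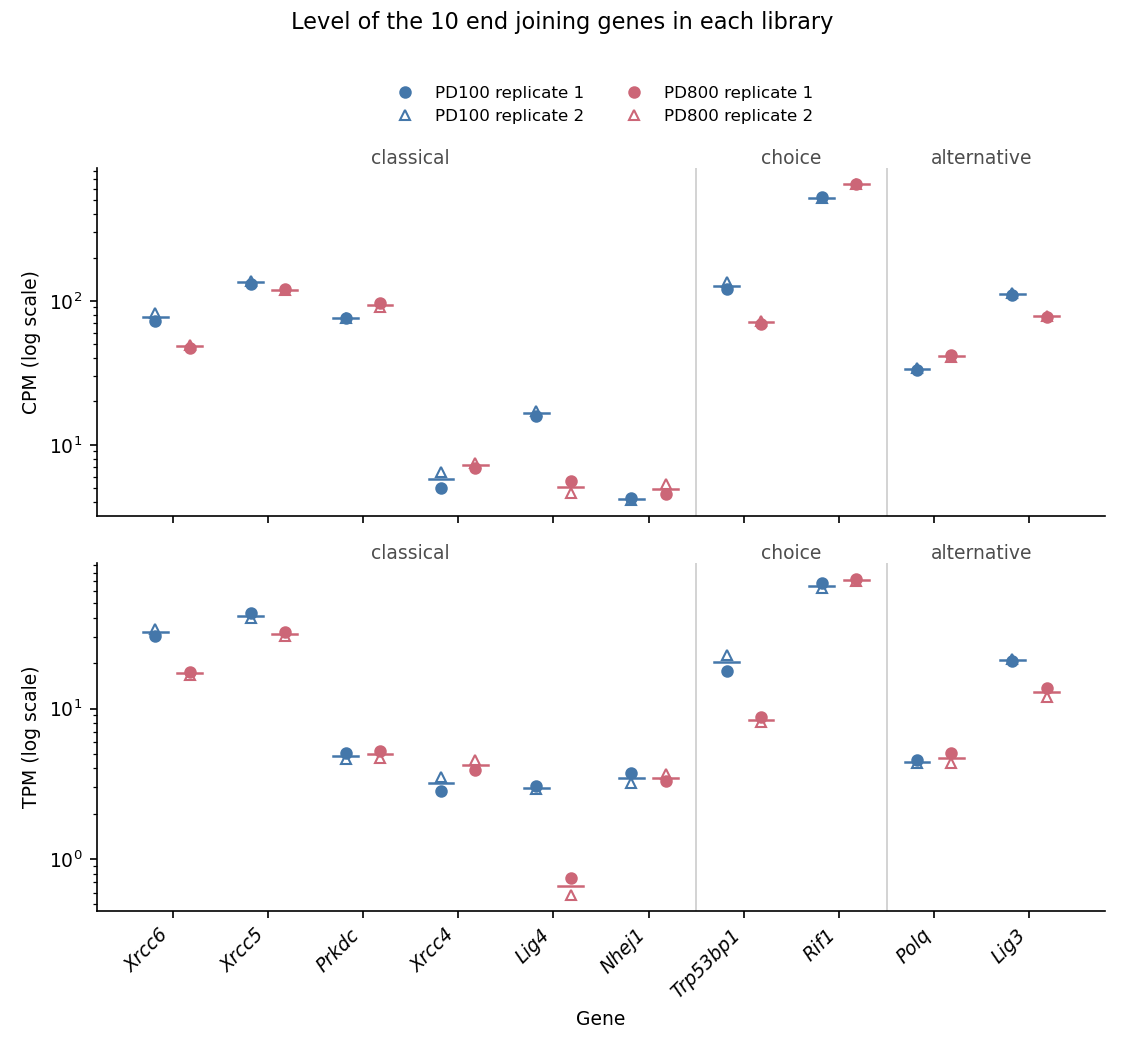
Level of each of the 10 genes in each library, as CPM (upper panel) and TPM (lower panel) on log axes, with circles for replicate 1, triangles for replicate 2 and a bar at the mean of the 2 libraries. *Lig4*, *Trp53bp1*, *Xrcc6* and *Lig3* have both PD800 libraries below both PD100 libraries on either scale.

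*Xrcc6* and *Xrcc5* encode Ku70 and Ku80, the subunits of the heterodimer that binds broken ends first. *Xrcc6* (ENSMUSG00000022471.13) lies on chromosome 15 from 81987835 to 82040085. It had expected counts of 2922 and 2744 in PD100 and of 1698 and 1593 in PD800, and TPM values of 30.6 and 33.8 against 17.6 and 16.7. The PD800 libraries were both low and close to each other, with no overlap between the groups. *Xrcc6* fell by 0.67 in log2 units (SE 0.09, adjusted p = 0.00202 by Benjamini-Hochberg, edgeR's quasi-likelihood test), from 77.3 ± 6.96 CPM to 48.4 ± 1.65 CPM (SD, n = 2). Without PD800 replicate 1 its log2 fold change was -0.64, and without PD800 replicate 2 it was -0.71. The call was lost in either case, in fits that take the within-group spread from the PD100 libraries alone. Over the alternatives with all libraries, the adjusted p by edgeR, DESeq2 or limma ranged from 2.03e-10 to 0.0219. An exon of *Desi1*, on the opposite strand, shares 344 bases with *Xrcc6*. *Desi1* was also lower, at 821 and 657 counts in PD100 against 481 and 428 in PD800 (log2 fold change -0.58, adjusted p = 0.00248 in edgeR's test). The study draws its RNA-seq by the direction of transcription, but whether the gene counts used the strand is not given in the sources used here, so the division of reads between such partners is uncertain.

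*Xrcc5* (ENSMUSG00000026187.8) lies on chromosome 1 from 72307421 to 72394952 and has a single annotated transcript. Its expected counts were 5315 and 4576 in PD100 and 4340 and 3824 in PD800, and its TPM values were 42.8 and 40.1 against 32.5 and 30.3. The PD800 libraries were below the PD100 libraries on both scales, by a smaller step than for its partner. The log2 fold change of -0.16 (SE 0.07) did not pass the test (adjusted p = 0.110 in edgeR's test), at 134 ± 3.84 CPM in PD100 and 120 ± 1.22 CPM in PD800 (SD, n = 2). In TPM, each *Xrcc5* transcript came with 0.713 and 0.843 *Xrcc6* transcripts in PD100 and with 0.542 and 0.553 in PD800. The subunits, which form a complex of 1 to 1, thus differed more in RNA at PD800 than at PD100. The difference between their fold changes was not tested.

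*Prkdc* encodes the catalytic subunit of the DNA-dependent protein kinase, which Ku recruits to the break. It (ENSMUSG00000022672.8) lies on chromosome 16 from 15637866 to 15842235, with expected counts of 3071 and 2544 in PD100 and of 3467 and 2932 in PD800. By CPM, the PD800 libraries (96.5 and 91.3) were above the PD100 libraries (76.1 and 76.2), whereas the TPM values of 5.22 and 4.72 in PD800 and of 5.04 and 4.64 in PD100 overlapped. The log2 fold change of 0.30 (SE 0.07) did not pass the threshold (adjusted p = 0.0182 in edgeR's test). It passed with the replicate block (adjusted p = 0.00687), without PD100 replicate 1 (adjusted p = 0.00469) and without PD100 replicate 2 (adjusted p = 0.00779), and over all alternatives the adjusted p of edgeR, DESeq2 or limma ranged from 0.00469 to 0.853. On log2(TPM + 1) the difference was 0.03. For each *Xrcc5* transcript, there were 0.118 and 0.116 *Prkdc* transcripts in PD100 and 0.161 and 0.156 in PD800.

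*Lig4*, the gene of the ligase that seals the ends in classical end joining, showed the largest change of the 10. It (ENSMUSG00000049717.9) lies on chromosome 8 from 9969049 to 9977686, on the minus strand. Its expected counts were 638 and 577 in PD100 and 200 and 149 in PD800, and its TPM values were 3.04 and 2.94 against 0.75 and 0.58. Both PD800 libraries were far below both PD100 libraries, at a depth well over the floor. *Lig4* fell by 1.69 in log2 units (SE 0.13, adjusted p = 0.000245 by Benjamini-Hochberg, edgeR's quasi-likelihood test), from 16.5 ± 1.05 CPM to 5.10 ± 0.655 CPM (SD, n = 2), which is 30.9% of the PD100 level. Leaving out each library in turn gave log2 fold changes from -1.83 to -1.57, and each kept the call. In the order of log2 fold changes, *Lig4* stood at the 5.82 percentile of all tested genes.

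The transcripts of *Lig4* differed as well. GENCODE M21 gives 2, a long transcript of 5028 bases (ENSMUST00000095476.5) with its start at 9976299, and a short transcript of 3105 bases (ENSMUST00000170033.1) with its start farther upstream at 9977686. The abundance-weighted length that RSEM gives for the gene was 4201 and 4286 bases in PD100 and 4962 and 5028 bases in PD800. With 2 transcripts, this length fixes their shares: the long transcript made up 57.0% and 61.4% of the *Lig4* TPM in PD100 and 96.6% and 100% in PD800. In TPM, the short transcript was at 1.31 and 1.14 in PD100 and at 0.0259 and 0 in PD800, and the long transcript at 1.73 and 1.80 against 0.724 and 0.58. Both transcripts were thus lower in both PD800 libraries, and the shorter one was nearly gone from RSEM's estimate. These shares are model estimates without a test, and they were computed after the gene's values had been seen. Weighted lengths did not overlap between the groups for other members either: longer in PD800 for *Prkdc*, shorter for *Xrcc4* and *Rif1*. None of these was called in the reported fit. For *Trp53bp1*, *Xrcc6* and *Lig3* the lengths overlapped, and the share over all genes was not computed.

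**Figure D2:**
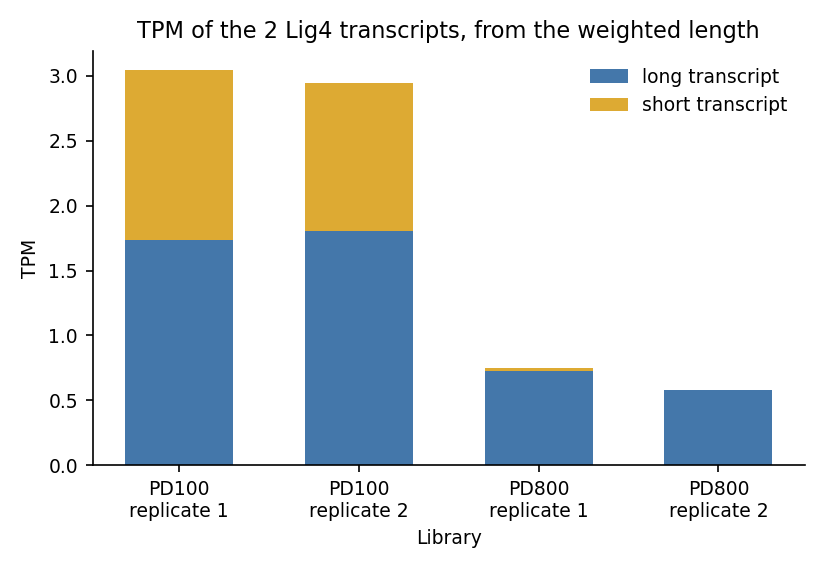
TPM of the long and the short *Lig4* transcript in each library, stacked from 0 to the gene's TPM and computed from the weighted length. The short transcript takes 1.31 and 1.14 TPM in PD100 and at most 0.0259 TPM in PD800.

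The region around *Lig4* was low too. Of its 40 nearest tested genes, which span chromosome 8 from 4209543 to 12915758, 22 were called lower (55.0%, against 15.4% of all tested genes) and 1 higher (2.5%, against 13.1%), and their median log2 fold change was -1.26. The gene next to it, *Abhd13*, is transcribed away from *Lig4* on the plus strand from 9977707. *Abhd13* was at 51.4 and 46.0 CPM in PD100 and at 20.7 and 20.9 CPM in PD800, a fall by 1.23 in log2 units (adjusted p = 0.000213 in edgeR's test). Toward the end of this span the estimates were mixed. *Ankrd10* (11611583 to 11635757) was at 0.06 and *Tubgcp3* (12614277 to 12672248) at -0.06, while *Arhgef7* (11727721 to 11835219) was called lower at -0.51 (adjusted p = 0.00394 in edgeR's test) and *Sox1* (12395295 to 12400126) was the gene called higher, at 1.74 (adjusted p = 0.00162), all picked after their values were seen. The estimate for *Lig4* was lower than those of 28 of its 40 neighbours. The neighbours include *Col4a1* at -4.42 and *Col4a2* at -4.86, and *Col4a1* is also in the list of primitive endoderm markers given below, all of which fell. The part of the neighbourhood in the fall of *Lig4* was not tested.

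*Xrcc4* and *Nhej1* encode the scaffold partner of the ligase and XLF, a protein related to it that stabilises the ligation complex. *Xrcc4* (ENSMUSG00000021615.13; chromosome 13, 89774027 to 90089608) had expected counts of 203 and 216 in PD100 and of 249 and 239 in PD800, and TPM values of 2.85 and 3.51 against 3.92 and 4.52. Both PD800 libraries were above both PD100 libraries, but the PD100 libraries lay apart from each other, at 5.03 and 6.47 CPM. The log2 fold change of 0.32 (SE 0.16) did not pass the test (adjusted p = 0.144 in edgeR's test). It was 0.15 without PD100 replicate 1 and 0.49 without PD100 replicate 2. *Nhej1* (ENSMUSG00000026162.7; chromosome 1, 74967139 to 75125200) had the PD100 counts 171 and 138 and the PD800 counts 164 and 172. Scaled for depth, the PD800 libraries (4.56 and 5.35 CPM) were above the PD100 libraries (4.24 and 4.13 CPM). Its TPM values of 3.72 and 3.21 in PD100 and of 3.30 and 3.65 in PD800 overlapped, and its log2 fold change of 0.24 (SE 0.15) did not pass the test (adjusted p = 0.238 in edgeR's test). For *Nhej1* the estimate was 0.35 without PD800 replicate 1 and 0.12 without PD800 replicate 2, and the difference of log2(TPM + 1) was 0.004. In TPM, there were 0.938 and 1.19 *Xrcc4* transcripts for each *Lig4* transcript in PD100 and 5.23 and 7.79 in PD800. The groups did not overlap, as in every partner ratio computed here. The ratio also reflects RSEM's weighted lengths. These were 1540 and 1445 bases for *Xrcc4* in PD100 and 1300 and 1163 in PD800, while those of *Lig4* were longer in PD800. An exon of *Tmem167*, on the opposite strand, shares 112 bases with *Xrcc4*.

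*Trp53bp1* encodes 53BP1, which gathers on chromatin beside a break and shields the ends from resection. It (ENSMUSG00000043909.16) lies on chromosome 2 from 121193281 to 121271407, with expected counts of 4851 and 4502 in PD100 and of 2476 and 2341 in PD800. TPM values were 17.7 and 22.8 in PD100 and 8.73 and 8.08 in PD800. The PD800 libraries were both low, while the PD100 libraries differed more in TPM than in CPM (120 and 135), since their weighted lengths were 5436 and 4309 bases. *Trp53bp1* fell by 0.85 in log2 units (SE 0.09, adjusted p = 0.000788 by Benjamini-Hochberg, edgeR's quasi-likelihood test), to 55.6% of the PD100 level. Without PD800 replicate 1 its log2 fold change was -0.81, just short of a call. Over the alternatives with all libraries, its adjusted p by edgeR, DESeq2 or limma ranged from 1.08e-16 to 0.0313. The antisense neighbour *Tubgcp4* shares 2130 exon bases with *Trp53bp1*, with counts of 1532 and 1018 in PD100 and of 1508 and 1299 in PD800. *Tubgcp4* did not pass the test (log2 fold change 0.27, adjusted p = 0.114 in edgeR's test).

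*Rif1* encodes a protein that 53BP1 recruits to block resection and that also acts in replication timing and in the silencing of genes of the early embryo. It (ENSMUSG00000036202.16; chromosome 2, 52072832 to 52122383) had the highest TPM of the 10 genes, and expected counts of 21229 and 17187 in PD100 and 23263 and 20876 in PD800. Its CPM values of 526 and 515 in PD100 lay below those of 647 and 650 in PD800, and its TPM values of 68.0 and 63.0 lay below 72.9 and 70.8. The groups were separate on both scales, but close in TPM. The log2 fold change of 0.32 (SE 0.08) did not pass the threshold (adjusted p = 0.0191 in edgeR's test). It passed without PD100 replicate 1 (adjusted p = 0.00131), without PD100 replicate 2 (adjusted p = 0.00355), with the replicate block (adjusted p = 0.00749), without a filter (adjusted p = 0.00463) and in DESeq2's Wald test (adjusted p = 0.00385), and over all alternatives of edgeR, DESeq2 and limma the adjusted p ranged from 0.00131 to 0.307. For each *Trp53bp1* transcript, there were 3.84 and 2.76 *Rif1* transcripts in PD100 and 8.35 and 8.77 in PD800, with no overlap between the groups.

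*Polq* encodes DNA polymerase theta, which anneals and extends microhomologies in alternative end joining. It (ENSMUSG00000034206.15; chromosome 16, 37011786 to 37095417) had expected counts of 1326 and 1143 in PD100 and of 1519 and 1319 in PD800. By CPM, the PD800 libraries (42.3 and 41.1) were above the PD100 libraries (32.8 and 34.2), whereas TPM values of 4.56 and 4.34 in PD100 and of 5.06 and 4.36 in PD800 overlapped. The log2 fold change of 0.31 (SE 0.08) did not pass the threshold (adjusted p = 0.0176 in edgeR's test). It passed with the replicate block (adjusted p = 0.00558), without PD100 replicate 1 (adjusted p = 0.00551) and without PD100 replicate 2 (adjusted p = 0.00211), and over all alternatives of edgeR, DESeq2 and limma the adjusted p ranged from 0.00211 to 0.706. On log2(TPM + 1), the difference was 0.06.

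*Lig3* encodes the ligase that joins ends in the alternative form and that also serves base excision repair and mitochondrial DNA. It (ENSMUSG00000020697.16; chromosome 11, 82781108 to 82804274) had expected counts of 4427 and 3806.5 in PD100 and of 2792 and 2514 in PD800, and TPM values of 20.7 and 21.3 against 13.7 and 11.9. The replicates were close within each group, and the PD800 libraries were low on both scales. *Lig3* fell by 0.52 in log2 units (SE 0.07, adjusted p = 0.00217 by Benjamini-Hochberg, edgeR's quasi-likelihood test), from 112 ± 3.10 CPM to 78.0 ± 0.399 CPM (SD, n = 2). The call was lost without PD800 replicate 1 (log2 fold change -0.52) and without PD800 replicate 2 (-0.53). Over the alternatives with all libraries, the adjusted p of *Lig3* by edgeR, DESeq2 or limma ranged from 7.36e-07 to 0.0332. Its antisense neighbour *Rffl* shares 1826 exon bases with it and was also lower, at 1156 and 816.5 counts in PD100 against 569 and 451 in PD800 (log2 fold change -0.83, adjusted p = 0.00227 in edgeR's test). Without the strand, the reads of *Lig3* and *Rffl* cannot be told apart where their exons overlap. For each *Lig3* transcript there were 0.220 and 0.203 *Polq* transcripts in PD100 and 0.370 and 0.367 in PD800, with no overlap. *Xrcc1* encodes the partner that stabilises the *Lig3* ligase; for each *Xrcc1* transcript there were 0.527 and 0.616 *Lig3* transcripts in PD100 and 0.411 and 0.373 in PD800.

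**Figure D3:**
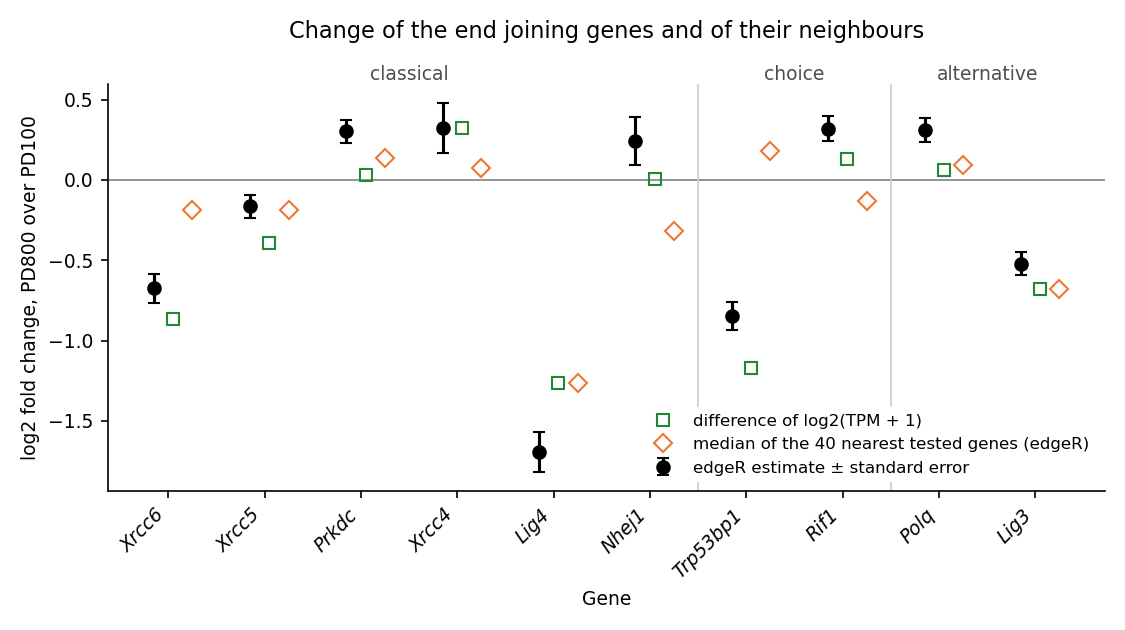
Log2 fold change, PD800 over PD100, of each gene as edgeR's estimate with its standard error (black), the difference of log2(TPM + 1) (green) and the median of the 40 nearest tested genes (orange). *Lig4* at -1.69 has neighbours with a median of -1.26, whereas *Trp53bp1* at -0.85 has neighbours with a median of 0.18.

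Scaled for length, the 10 genes could be ordered by their mean level, with overlap between some adjacent genes. In PD100, *Rif1* was highest (65.5 ± 3.50 TPM, SD, n = 2), followed by *Xrcc5* (41.5 ± 1.93 TPM), *Xrcc6* (32.2 ± 2.31 TPM), *Lig3* (21.03 ± 0.424 TPM) and *Trp53bp1* (20.3 ± 3.63 TPM). *Lig3* and *Trp53bp1* overlapped in their libraries. At the foot of the order, each under 4 TPM, *Nhej1* overlapped with *Xrcc4*, and *Xrcc4* with *Lig4*, but *Nhej1* lay above *Lig4*. In PD800, *Rif1* was still highest (71.9 ± 1.46 TPM), the gap from *Trp53bp1* (8.41 ± 0.460 TPM) up to *Lig3* (12.8 ± 1.27 TPM) was clear of overlap, and *Lig4* stood alone at the foot (0.665 ± 0.120 TPM). *Prkdc* and *Polq*, and *Polq* and *Xrcc4*, overlapped there. The 6 classical genes summed to 88.0 and 88.2 TPM in PD100 and to 63.3 and 60.5 TPM in PD800. *Polq* and *Lig3* together came to 25.3 and 25.7 TPM against 18.8 and 16.3 TPM, and *Trp53bp1* with *Rif1* to 85.7 and 85.9 TPM against 81.6 and 78.9 TPM. All 3 sums were lower in both PD800 libraries, on a scale on which the median of all genes was lower as well. The sums do not speak for each gene in them. By TPM, *Xrcc4* and *Rif1* were higher in both PD800 libraries, and *Prkdc*, *Nhej1* and *Polq* overlapped between the groups.

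Beyond *Lig4*, the genes that fell differed in their surroundings. Over all tested genes, 15.4% were called lower and 13.1% higher. Around *Lig3*, 16 of the 40 nearest tested genes were called lower (40%), and their median log2 fold change was -0.68, below the estimate for *Lig3* itself. *Trp53bp1* stood apart from its neighbours, of which 3 were called lower (7.5%) and 6 higher (15%), with a median of 0.18; 2 of the 40 had a lower estimate than *Trp53bp1*. Around *Xrcc6*, 5 were called lower (12.5%) and 3 higher (7.5%), the median was -0.19, and 5 of the 40 had a lower estimate. For the 6 genes that did not pass the test, the medians of the neighbours lay between -0.32 (*Nhej1*) and 0.14 (*Prkdc*). None of the 10 genes lies near the far end of its chromosome, with distances to the last annotated base from 21.9 Mb (*Xrcc6*) to 130 Mb (*Rif1*). Whether a change in DNA copy number went with these regional values was not tested.

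**Figure D4:**
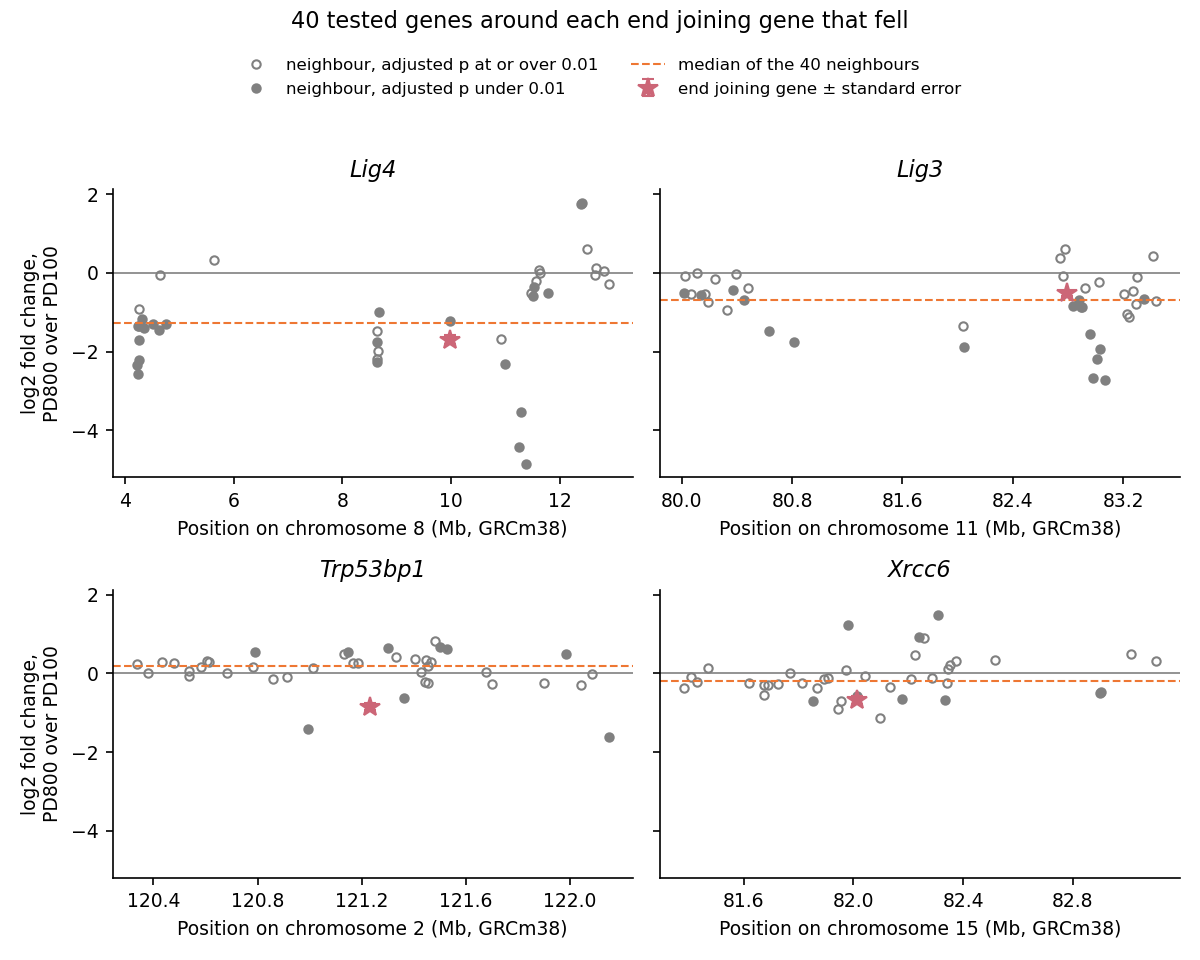
Log2 fold change, PD800 over PD100, of the 40 tested genes nearest to *Lig4*, *Lig3*, *Trp53bp1* and *Xrcc6* by position in Mb (GRCm38), with filled circles for an adjusted p under 0.01, a star for the end joining gene with its standard error and a dashed line at the median of the neighbours. Around *Lig4* and *Lig3* the medians are -1.26 and -0.68, and around *Trp53bp1* and *Xrcc6* they are 0.18 and -0.19.

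Other genes of the same pathways were taken as lists, to be read against the 13.1% of all tested genes called higher and the 15.4% called lower. Of 12 accessory factors of classical end joining (mostly nucleases, polymerases and end-processing enzymes), 11 were found and 10 had enough counts for a test. Of these 10, 1 was called higher and 1 lower, with a median log2 fold change of -0.09. *Tdp1*, a phosphodiesterase that removes blocked ends, was at 35.3 and 32.4 CPM in PD100 and at 54.1 and 51.0 CPM in PD800, and rose by 0.63 (SE 0.08, adjusted p = 0.00191 in edgeR's test). *Wrn*, the helicase lost in Werner syndrome, was at 26.8 and 27.5 CPM in PD100 and at 16.1 and 15.9 CPM in PD800, and fell by 0.76 (SE 0.08, adjusted p = 0.000786 in edgeR's test). The median log2 fold change of the 40 nearest tested genes was 0.91 around *Tdp1* and -0.69 around *Wrn*. *Dntt*, the template-free polymerase of lymphocytes, had 0 counts in all 4 libraries. *Tdp1* lost the call without PD800 replicate 1 (log2 fold change 0.59) and without PD800 replicate 2 (0.68). *Wrn* lost it without PD800 replicate 2 (-0.75). Limma on log2(TPM + 1) gave *Tdp1* an adjusted p of 0.0981, too high for a call. Over the alternatives with all libraries, the adjusted p by edgeR, DESeq2 or limma ranged from 1.07e-08 to 0.211 for *Tdp1*. For *Wrn* it ranged from 1.30e-10 to 0.0263.

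Of 14 genes of the 53BP1 pathway and its upstream signalling, 12 were found and tested. In edgeR's test 0 were called higher (3 at an unadjusted p under 0.05, against 26.4% of all genes, and 1 called by DESeq2, against 13.1%) and 1 lower, with a median log2 fold change of 0.16. On log2(TPM + 1), the median of the list was -0.09, against -0.12 for all genes. *Fam35a*, which encodes the shieldin subunit SHLD2 that acts downstream of *Trp53bp1* and *Rif1*, was at 29.9 and 32.9 CPM in PD100 and at 20.1 and 21.1 CPM in PD800, and fell by 0.60 (SE 0.09, adjusted p = 0.00272 in edgeR's test). It lost the call without PD800 replicate 1 (log2 fold change -0.57) and without PD800 replicate 2 (-0.64). Over the alternatives with all libraries, its adjusted p by edgeR, DESeq2 or limma ranged from 2.64e-07 to 0.0206. The median of its 40 nearest tested genes was -0.46. The highest estimate was that of *L3mbtl1*, a chromatin reader of methylated histones, at 0.83 (SE 0.30) from 24 and 33 counts in PD100 against 49 and 46 in PD800, which did not pass the test (adjusted p = 0.0682 in edgeR's test). It was 0.50 without PD100 replicate 1 and 1.21 without PD100 replicate 2, and the difference of log2(TPM + 1) was 0.09.

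Of 11 partners of alternative end joining and of end resection, all were tested. By edgeR 0 were called higher (1 at an unadjusted p under 0.05, against 26.4% of all genes, and 0 called by DESeq2, against 13.1%) and 1 lower, with a median log2 fold change of -0.10. Limma on log2(TPM + 1) called 2 lower (12.2% of all genes), and 7 were lower at an unadjusted p under 0.05 (6607 of all 19148 genes). *Rad50*, a subunit of the complex that starts resection, was at 80.7 and 82.7 CPM in PD100 and at 60.7 and 63.7 CPM in PD800, and fell by 0.39 (SE 0.07, adjusted p = 0.00693 in edgeR's test). It lost the call without PD800 replicate 1 (log2 fold change -0.36) and without PD800 replicate 2 (-0.43). Over the alternatives with all libraries, its adjusted p by edgeR, DESeq2 or limma ranged from 0.000368 to 0.0274. The median of its 40 nearest tested genes was -0.44. *Rbbp8*, the gene of the resection factor CtIP, had the highest estimate at 0.37 (SE 0.09), from 29.6 and 26.5 CPM in PD100 to 37.6 and 35.0 CPM in PD800, and did not pass the threshold (adjusted p = 0.0187 in edgeR's test). It passed without PD100 replicate 1 (adjusted p = 0.000483 in edgeR's test), without PD100 replicate 2 (adjusted p = 0.00935), with the replicate block (adjusted p = 0.00149) and without a filter (adjusted p = 0.00249), in a range over all alternatives from 0.000483 to 0.601. *Parp1*, whose protein binds breaks and competes with Ku, was the most abundant of the list by mean TPM, at 120.1 and 121.6 TPM in PD100 and 122.9 and 119.2 TPM in PD800, which overlap. Its CPM values were 498 and 562 against 600 and 637, and it did not pass the test (adjusted p = 0.108 in edgeR's test). Together, the 33 tested genes of these lists had 1 called higher and 3 lower in edgeR's test. Their median log2 fold change by edgeR was 0.03, beside 0.04 for the 10 end joining genes and 0.01 for all genes. On log2(TPM + 1), the medians were -0.31 for the accessory factors, -0.09 for the 53BP1 pathway and -0.36 for the alternative end joining partners. On that scale they were -0.19 for the 10 end joining genes and -0.12 for all genes.

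Markers of cell types moved along with the comparison. Of 12 markers of embryonic stem cells, all tested, 6 rose (13.1% of all tested genes were called higher and 15.4% lower), and the list summed to 2551 and 2858 CPM in PD100 and to 4470 and 4573 CPM in PD800, with *Dppa5a* as the most abundant gene by mean TPM. The 6 were *Nanog*, *Esrrb*, *Klf4*, *Tdgf1*, *Utf1* and *Fgf4*, whereas *Dppa5a* did not pass the test (adjusted p = 0.1497 in edgeR's test). *Pou5f1*, a defining marker, was at 467 and 503 CPM in PD100 and 601 and 635 CPM in PD800 and did not pass either (adjusted p = 0.0194 in edgeR's test); its TPM values were 306 and 296 against 325 and 325. *Lin28a* was lower, at 45.02 and 47.02 TPM in PD100 and 29.68 and 30.18 TPM in PD800, without a call in edgeR's test (log2 fold change -0.35, adjusted p = 0.0143). DESeq2 called 9 of the list higher and 1 lower (13.1% and 15.9% of all genes), and limma on log2(TPM + 1) called 4 higher and 1 lower (3.72% and 12.2% of all genes). All 10 markers of primitive endoderm fell, from sums of 2366 and 2613 CPM in PD100 to 239 and 250 CPM in PD800, with *Sparc* as the most abundant by mean TPM. *Foxa2* had 1 count in each PD800 library, against 230 and 147 counts in the PD100 libraries. Of 12 fibroblast markers, 11 were tested and 6 fell. DESeq2 called 7 lower and limma on log2(TPM + 1) called 4 lower (15.9% and 12.2% of all genes). The list summed to 433 and 441 CPM in PD100 and to 290 and 243 CPM in PD800. The most abundant was *Fn1*, at 349 and 333 CPM in PD100 and 273 and 225 CPM in PD800, which holds most of these sums and did not pass the test (adjusted p = 0.0185 in edgeR's test). *Lum* had 0 counts in 3 libraries and 1 in PD800 replicate 2, and *Pdgfra* stands in both lists. The lymphoid markers, which would mark cells that use end joining to rearrange their antigen receptors, summed to 1.09 and 1.14 CPM in PD100 and 1.31 and 1.21 CPM in PD800. Of these 6, *Rag1*, *Rag2* and *Dntt* were at or near 0 in every library, and 2 had enough counts for a test. By TPM, *Ptprc* was the most abundant in both PD100 libraries (0.14 and 0.23) and was called lower by edgeR. *Cd3e* was the most abundant in both PD800 libraries (0.75 and 0.51) and was called higher by edgeR. DESeq2 called 0 of the list in either direction, whereas limma on log2(TPM + 1) called 1 higher, *Cd3e* (3.72% of all genes), and 0 lower. The part of these cell types in the levels of the end joining genes was not tested. Genes of the mitochondrial genome together with small non-coding RNAs held 23.4% and 22.04% of the counts in PD100 and 28.3% and 27.7% in PD800. Without these genes the same fit called 4 end joining genes lower, among 3111 genes called lower, against 2943 in the reported fit.

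The promoters of the end joining genes were searched for short motifs, and the windows of the genes that fell are printed below. RefSeq promoter windows (GRCm38.p6, 250 bases before to 50 after an annotated start) matched 8 of the 10 genes, in 9 windows, 2 of them for *Lig4*; *Prkdc* and *Rif1* were not matched. Exact letters were searched on both strands. The GC box GGGCGG was found in 6 of the 9 windows (35.66% of all 32851 promoters), the ETS core CCGGAA in 5 (14.9%), CCAAT in 2 (37.41%) and TATAAA in 0 (13.62%). These counts include genes without a call: the GC box was also found for *Xrcc4* and *Nhej1*, and the ETS core for *Xrcc4* and *Polq*. The windows of *Trp53bp1* and *Xrcc6*, which fell, did not hold the ETS core. Of 2 forms of the E2F site, TTTCCCGC was found in 1, that of *Xrcc6* (1.068% of all promoters), and TTTGGCGC in 0 (0.514%). The 10-base palindrome of NRF1 was found in 1, the upstream window of *Lig4* (0.971%), which is the window at the start of the short *Lig4* transcript and also spans the start of *Abhd13*. GC content was 67.3% and 66.3% in the *Lig4* windows, 64.3% in that of *Xrcc6*, 57.3% in that of *Trp53bp1* and 54.0% in that of *Lig3*. For the matched genes without a call it was 65.7% (*Xrcc4*), 52.7% (*Polq*), 50.7% (*Nhej1*) and 48% (*Xrcc5*). The median over all promoters was 52.7%. No matches overlapped each other in the windows shown. A match is a description of letters and not a site. The windows are written 5′ to 3′ on the strand of the gene, with every match of these motifs in capitals: *Lig4* downstream at chr8:9976262-9976561 (minus strand), *Lig4* upstream at chr8:9977631-9977930 (minus strand), *Trp53bp1* at chr2:121271358-121271657 (minus strand), *Xrcc6* at chr15:82016119-82016418 (plus strand) and *Lig3* at chr11:82780859-82781158 (plus strand).
Lig4 downstream: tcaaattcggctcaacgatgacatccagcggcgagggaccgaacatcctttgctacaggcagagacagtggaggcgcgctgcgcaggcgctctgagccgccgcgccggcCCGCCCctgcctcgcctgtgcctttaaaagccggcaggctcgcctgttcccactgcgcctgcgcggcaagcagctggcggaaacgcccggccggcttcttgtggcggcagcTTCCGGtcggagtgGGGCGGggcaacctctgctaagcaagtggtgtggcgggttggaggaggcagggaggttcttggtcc
Lig4 upstream: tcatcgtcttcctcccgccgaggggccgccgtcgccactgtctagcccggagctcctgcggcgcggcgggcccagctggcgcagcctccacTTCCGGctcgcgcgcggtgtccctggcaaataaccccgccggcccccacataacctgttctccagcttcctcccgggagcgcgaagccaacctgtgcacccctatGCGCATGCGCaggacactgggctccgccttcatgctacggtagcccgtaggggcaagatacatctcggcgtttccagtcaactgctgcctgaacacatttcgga
Trp53bp1: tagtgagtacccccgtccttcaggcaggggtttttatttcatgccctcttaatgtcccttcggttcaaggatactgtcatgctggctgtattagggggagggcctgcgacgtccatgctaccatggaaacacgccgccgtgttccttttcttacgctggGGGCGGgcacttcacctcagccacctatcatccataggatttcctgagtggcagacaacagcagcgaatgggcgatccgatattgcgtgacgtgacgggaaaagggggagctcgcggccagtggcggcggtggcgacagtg
Xrcc6: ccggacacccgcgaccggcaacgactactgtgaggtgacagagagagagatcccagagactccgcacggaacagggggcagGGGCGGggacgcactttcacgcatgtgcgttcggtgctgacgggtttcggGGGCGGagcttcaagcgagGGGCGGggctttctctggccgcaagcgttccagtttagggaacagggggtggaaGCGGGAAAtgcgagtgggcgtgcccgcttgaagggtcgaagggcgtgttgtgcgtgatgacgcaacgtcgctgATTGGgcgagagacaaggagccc
Lig3: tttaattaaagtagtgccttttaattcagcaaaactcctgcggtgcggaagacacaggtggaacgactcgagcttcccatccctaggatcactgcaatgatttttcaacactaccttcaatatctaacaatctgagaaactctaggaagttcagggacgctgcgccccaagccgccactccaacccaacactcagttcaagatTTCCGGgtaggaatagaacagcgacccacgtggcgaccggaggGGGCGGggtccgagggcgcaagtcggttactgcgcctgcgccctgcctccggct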

How the data were processed

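The authors aligned 101 bp paired-end reads to mm10 with STAR 2.5.3a and deposited, per gene, the expected count of RSEM 1.3.0, which divides reads that align to several genes and is not scaled for depth, with TPM values, scaled for length and total. The authors also deposited FPKM values, which were not used, and RSEM's length and effective length, of which the length was used here. The annotation release is not given in the sources used here; 53274 of the 53379 gene identifiers were found in GENCODE M21. The members and lists were chosen with earlier results of these data known.

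Expected counts were rounded and analysed with edgeR 4.0.16 in R 4.3.3 (filterByExpr with a minimum count of 10, TMM, quasi-likelihood test, Benjamini-Hochberg adjustment over 19148 genes). All 10 members were named, and of each pathway list the genes past an adjusted p of 0.01 and a 2-fold change and the highest and lowest estimates. Counts of replicates varied more than sampling gives (chi-square per degree of freedom 57.9 in PD100 and 9.13 in PD800). A fit with 1 library left out takes its within-group spread from the other group alone. Calls lost without a PD800 library or gained without a PD100 library can thus go with little change in the estimate. The alternatives were DESeq2 1.42.0, other normalisations and filters, a replicate block, limma 3.58.1 on log2(TPM + 1) or log2(TPM + 0.1), an adjusted p under 0.05, glmTreat, and each library left out. The procedure was tested on simulated data, drawn with a common dispersion and known changes of 2-fold or more, so smaller changes were not covered.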

Additional observations from a re-analysis of the deposited data

How the results depend on the processing

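No direction turned in 224 alternative values for the 10 end joining genes and the 6 named list genes; 187 kept their side of the threshold, 22 lost the call and 15 gained it, with causes not tested unless given. Higher and lower genes numbered 2513 and 2943 in the reported fit. Without a filter 3991 were higher, at an adjusted p under 0.05 there were 4224 and 4515, and with limma on log2(TPM + 1) or log2(TPM + 0.1) 712 and 706 were higher. Past 2-fold (1202 and 1685 reported), these scales gave 297 and 533 higher, log2(TPM + 1) gave 920 lower, and glmTreat gave 386 higher and 685 lower. Limma on log2(TPM + 1) without a filter called 0 of 32318 genes in either direction, 0 past 2-fold, 0 members and 0 list genes, with 2787 higher and 7294 lower at an unadjusted p under 0.05. Among the members, 4 were lower in the other fits with all libraries; 1 was higher with DESeq2 and 1 without a filter (*Rif1* in both), and 3 at an adjusted p under 0.05. Of the list genes (1 higher and 3 lower reported), DESeq2 and the fit without mitochondrial genes and small RNAs called 2 higher each, the fit without a filter 4, the threshold of 0.05 gave 4 higher and 7 lower, and limma on either TPM scale gave 0 higher (1 at an unadjusted p under 0.05 on log2(TPM + 1), against 12.8% of all genes). With 1 library left out, which assumes that the lone library varies like the other group, higher genes ranged from 1175 to 3994, lower genes from 1478 to 4193, members from 0 to 3 higher and from 1 to 4 lower, and list genes from 0 to 7 higher and from 0 to 8 lower. The libraries share only a replicate number (correlation of same-numbered deviations 0.265), and with that number as a replicate block 3854 genes were higher and 4125 lower, 3 members higher (*Rif1*, *Polq* and *Prkdc*) and 4 lower, and 4 list genes higher and 5 lower. Groups of 2 libraries and the depth of *Nhej1* and *Xrcc4*, with under 250 counts in each library, limit the precision.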
